A study of Mus musculus with 9 samples.

Results

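The mouse ribosomal protein pseudogenes described here are the 210 rows, of 26358 genes in the table, whose symbol starts with Rpl, Rps, Rplp or Rpsa and contains -ps. They belong to 57 parent genes, taken as the symbol before -ps. The largest families are those of Rps12 with 18 members, Rpl31 with 12, Rpl21 with 11 and Rps2 with 10. RNA selected on oligo(dT) was sequenced from mouse oocytes in 9 libraries, 3 per group. In cryopreservation-2, oocytes were frozen in a straw with 17.5% EG, 1 M trehalose and nanoparticles labelled PVA/Fe3O4/GO. In cryopreservation-1 they were frozen on a cryotop with 15% EG, 15% DMSO and 0.5 M sucrose, and in the fresh group they were not frozen. Carrier, solutes and nanoparticles differed together, so each comparison is one of whole protocols. The labels give no strain, age or number of animals, and do not say whether replicates came from separate animals, so a p-value here reflects the spread among the 9 libraries alone, which may be technical.

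Processed pseudogenes arise when a messenger RNA is copied into DNA and inserted elsewhere in the genome, usually without the introns and promoter of its parent. Ribosomal protein genes, which encode the protein components of the ribosome and are transcribed strongly in most cells, have many such copies in mammals. Some copies are transcribed from sequence near their insertion site, and a copy that is nearly identical to its parent can also receive the parent's reads when short reads are assigned to genes. In growing oocytes, transcripts are stored for use after fertilization, and most transcription stops before maturation.

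Gdf9, a growth factor secreted by oocytes, had 274031 to 966757 counts, and the 10 oocyte markers took 0.884% to 1.48% of counts. Markers of other cell types were low but not absent. The 9 cumulus and granulosa markers in the table took 0.00491% to 0.00900%, led by Cyp19a1 with 1671 to 5264 counts, the 5 stromal and endothelial markers took 0.00710% to 0.0160%, led by Pecam1 with 3634 to 10767 counts, and the 6 blood and immune markers took 0.000303% to 0.00146%. Levels within each list varied widely. Ptx3, Col1a1 and Ptprc had at most 14, 4 and 7 counts. In the cumulus and granulosa list Nr5a2 had 554 to 1421 counts and Kitl 73 to 727. In the blood and immune list C1qb had 93 to 802 and Cd68 39 to 411, and stromal Dcn had 4 to 272. The part of other cells in the pseudogene values was not tested. Total counts lay between 49337232 and 51369012 in cryopreservation-2, between 64276885 and 80877288 in cryopreservation-1 and between 73899130 and 80100460 in fresh libraries, so the cryopreservation-2 libraries were the shallowest. Cryopreservation-2 replicate 1, cryopreservation-1 replicate 3 and fresh replicate 3 had the most genes at 0 counts of their groups, 8667, 8421 and 9108.

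In the annotation of the table, 196 of the 210 members are processed pseudogenes, 9 are transcribed processed pseudogenes and 5 are listed as protein coding. Of the 209 members whose parent had a coding transcript, the median identity to the parent's coding sequence was 97.9%, with a range of 74.0% to 100%, and 61 were at least 99% identical. A reading frame of at least 95% of the parent's length was kept in 82 members, and in 71 the longest frame was under 50% of it. These values depend on the parent transcript, which was the one with the longest coding sequence, 147 codons for Rps12. Rps12-ps3, Rps12-ps9 and Rps12-ps10, each with a frame of 132 codons, thus stood at 89.8% and outside the 82. Rps12-ps3 had 89.3% identity with 0 substitutions and 1 gap. No other annotated gene overlapped 140 of the loci, and 70 overlapped one, 26 of them on the same strand. The members can be told apart by reads only in part. In 124 of the 210, under 50% of the 50-base windows were found in no other annotated gene, and 199 shared at least 1 window with their parent. The symbol need not name the closest gene. Rpl36a-ps3 was 87.4% identical to Rpl36a and shared no window with it, but shared windows with Rpl36al.

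The sequences below show how far reads can separate the pseudogenes that carry the results from their parents. They are stretches of the parent's coding sequence and the aligned bases of the pseudogene, from GENCODE M21 transcripts on GRCm38, 5′ to 3′, and capitals mark the bases that differ between a pseudogene and its parent. Rpsa encodes a small-subunit protein also known as the laminin receptor. A 120-base window of its coding sequence was chosen for its differences, from windows without a gap and not from all of them. There, Rpsa-ps4 on chr11:33039458-33039577 (minus strand) differed from Rpsa on chromosome 9 (120128616 to 120129270, plus strand, 2 exons) at 5 bases.
Rpsa-ps4: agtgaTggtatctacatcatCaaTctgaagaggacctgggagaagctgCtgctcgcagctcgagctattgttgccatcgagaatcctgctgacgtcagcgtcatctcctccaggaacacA
Rpsa: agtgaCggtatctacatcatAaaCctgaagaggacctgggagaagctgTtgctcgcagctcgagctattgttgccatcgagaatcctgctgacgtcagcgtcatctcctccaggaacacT

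Counted from the first base of the Rpsa start codon, the substitutions in this window are C132T, A147C, C150T, T175C and T246A. Over the whole coding sequence Rpsa-ps4 had 22 substitutions and no gap, kept a reading frame of 295 codons, and had 61.6% of its 50-base windows in no other annotated gene. The whole copy lies at chr11:33038816-33039703, in no annotated gene, with Gm26052 at 54517 bases on its left and Gm12114 at 28848 bases on its right.

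Rpl7a encodes a large-subunit protein. Its copies show the opposite case, since they differ from the parent and from each other by few bases. A 120-base window was chosen in the same way, on chromosome 2 for Rpl7a (26911100 to 26911514, plus strand, 2 exons). The aligned copies were Rpl7a-ps3 on chr15:36308728-36308847 (minus strand), Rpl7a-ps5 on chr17:57839005-57839124 (minus strand), Rpl7a-ps10 on chr9:97179276-97179395 (plus strand) and Rpl7a-ps11 on chrX:166854308-166854427 (plus strand). Capitals in the Rpl7a line mark each base at which at least 1 copy differed.
Rpl7a-ps3: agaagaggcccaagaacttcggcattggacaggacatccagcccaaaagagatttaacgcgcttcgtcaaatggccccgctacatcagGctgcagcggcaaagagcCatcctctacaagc
Rpl7a-ps5: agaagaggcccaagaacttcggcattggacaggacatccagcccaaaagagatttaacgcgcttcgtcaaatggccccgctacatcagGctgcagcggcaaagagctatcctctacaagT
Rpl7a-ps10: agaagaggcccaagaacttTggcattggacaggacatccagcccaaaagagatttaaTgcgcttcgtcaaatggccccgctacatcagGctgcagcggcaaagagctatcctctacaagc
Rpl7a-ps11: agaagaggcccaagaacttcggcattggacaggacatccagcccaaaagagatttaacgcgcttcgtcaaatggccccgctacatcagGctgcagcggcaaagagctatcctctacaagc
Rpl7a: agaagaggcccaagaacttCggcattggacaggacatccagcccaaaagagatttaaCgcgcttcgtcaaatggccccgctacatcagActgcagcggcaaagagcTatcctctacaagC

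The 4 copies all carried A186G, counted from the first base of the Rpl7a start codon. Rpl7a-ps11 had 2 substitutions over the whole coding sequence, a reading frame of 266 codons and 0% of its windows to itself. Rpl7a-ps3, Rpl7a-ps5 and Rpl7a-ps10 had 12, 9 and 11 substitutions, and their longest reading frame was 24 codons in each.

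Rpl10-ps3, listed as protein coding, had the coding sequence of Rpl10, a large-subunit protein gene of the X chromosome, with 0 substitutions. The first 60 coding bases, at chr9:50344882-50344941 (minus strand) for the copy and at 74271002 to 74271696 (plus strand, 2 exons) of chromosome X for the parent, show this.
Rpl10-ps3: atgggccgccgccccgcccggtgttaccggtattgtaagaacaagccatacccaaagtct
Rpl10: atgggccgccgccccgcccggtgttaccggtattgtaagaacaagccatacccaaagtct

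Rpl34-ps1 (chr6:71124610-71124963, plus strand), a copy of another large-subunit gene, differed from Rpl34 at 2 bases and had 0% of its windows to itself. A stretch of 60 bases with T132C, at chr6:71124682-71124741 (plus strand) for the copy and at chr3:130729084-130729143 (minus strand) for the parent, shows 1 of the 2.
Rpl34-ps1: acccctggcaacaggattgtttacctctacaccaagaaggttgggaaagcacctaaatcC
Rpl34: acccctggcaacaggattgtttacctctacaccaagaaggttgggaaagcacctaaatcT

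Most of the pseudogenes were near the lower limit of detection and a few were abundant. The total over 9 libraries was under 10 counts for 66 members, 10 to 99 for 68, 100 to 999 for 57 and above 999 for 19. No member was at 0 in every library, and 93 passed the filter on low counts. The mean level over the 9 libraries had a median of 0.0792 FPKM (reads scaled to gene length and to library size) over the members and reached 44.2 FPKM for Rpl17-ps10. Low counts need care, because the deposited counts equal the value implied by FPKM and length when rounded up, within 0.02 reads, for 85.7% to 89.8% of genes with low counts. Between 4 and 41 pseudogenes per library had a count above 0 that stood for less than 1 implied read.

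**Figure D1:**
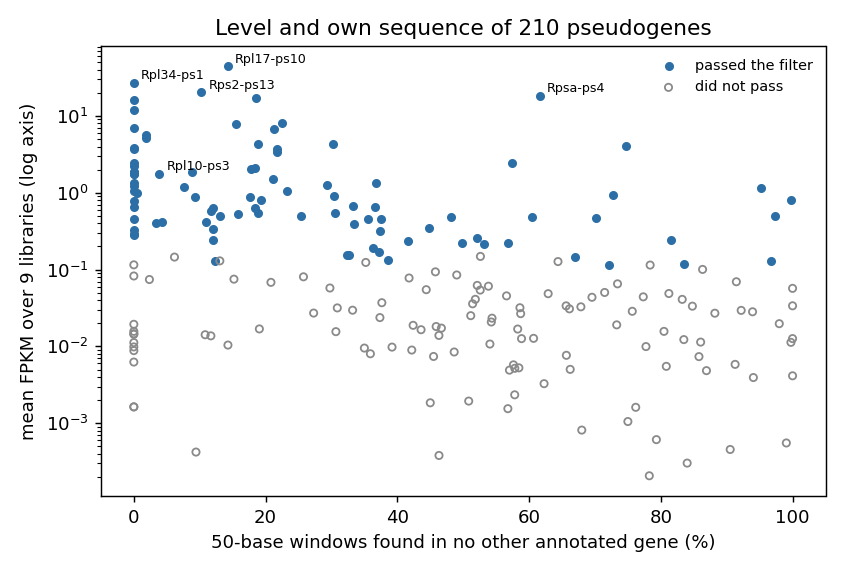
Mean FPKM over 9 libraries (log axis) of the 210 pseudogenes against the percentage of their 50-base windows found in no other annotated gene; filled points passed the filter on low counts. Rpl17-ps10, at 44.2 FPKM, had few windows of its own, while Rpsa-ps4 was abundant with 61.6% of its own.

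The most abundant members were mostly those with little sequence of their own. Of the 124 members with under 50% of their windows to themselves, 76 passed the filter, and their median level was 0.343 FPKM. Of the 86 members with at least 50%, 17 passed, and the median level was 0.0291 FPKM. Of the 82 members with a frame of at least 95% of the longest parent frame, 45 passed the filter. Of the other 128, which include Rps12 copies with 132 codons, 48 passed. These are descriptions, and how much of a member's level came from reads of other copies was not tested.

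Per length, some pseudogenes stood above their parents. Rps2-ps13 had a mean level of 20.2 FPKM and Rps2-ps10 of 7.07 FPKM, against 0.200 FPKM for Rps2, a small-subunit gene. Rpl34-ps1 had 27.0 FPKM against 0.850 FPKM for Rpl34, and Rpsa-ps4 had 18.2 FPKM against 0.456 FPKM for Rpsa as means over all 9 libraries. In cryopreservation-2 alone the levels overlapped, at 0.268, 0.518 and 0.712 FPKM for Rpsa-ps4 and 0.291, 0.192 and 0.634 FPKM for Rpsa, and there the copy had fewer counts than Rpsa in all 3 libraries. In 15 of the 57 families the pseudogenes together had more counts than the parent, and in 42 they had fewer.

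Oocytes frozen in a straw with nanoparticles were first set against unfrozen ones. Rpsa-ps4 fell 64.7-fold, and Rpl17-ps10, Rpl17-ps8 and Rpl10-ps3 rose 2.75-fold to 3.68-fold. These were the 4 members called of the 93 tested, 3 higher and 1 lower, by edgeR's quasi-likelihood test at an adjusted p under 0.05. Over all 17545 genes the same test called 944, which is 5.38%, with 558 higher (3.18%) and 386 lower (2.20%), beside 4.30% of the pseudogenes, a share near the background. With the other tools the share of pseudogenes was above that of all genes. DESeq2 called 24 of the 80 pseudogenes to which it gave an adjusted p (19 higher, 5 lower), which is 30%, beside 15.0% of genes (2471 of 16419). Limma on log2(FPKM + 1) called 35 of 93, which is 37.6%, beside 10.2% of genes (1792 of 17545). Scaled by library totals alone, edgeR called 938 genes higher and 187 lower. Rpsa-ps4 kept its call under all 19 alternatives, while Rpl17-ps10 lost it in 8, Rpl17-ps8 in 12 and Rpl10-ps3 in 14.

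Rpsa-ps4 had 15, 27 and 40 counts in cryopreservation-2 libraries, 1395, 2131 and 1877 in cryopreservation-1 libraries and 691, 3348 and 2673 in fresh libraries. All 3 cryopreservation-2 libraries were far below the other 6, and the groups did not overlap. The scaled level was 0.482 ± 0.190 CPM (counts per library total, scaled by TMM; SD, n = 3) in cryopreservation-2, 25.3 ± 6.39 CPM in cryopreservation-1 and 31.5 ± 20.5 CPM in unfrozen oocytes. Against fresh this is -6.02 on the log2 scale (SE 0.67, edgeR adjusted p = 0.00397), and it lay between -6.46 and -4.06 over the alternatives, with a highest adjusted p of 0.0478. Fewer oocytes holding the transcript and less of it per oocyte cannot be told apart in these libraries. The parent Rpsa, in the same order of groups, had 56, 37 and 126 counts, then 159, 53 and 19, then 431, 127 and 63, and was not called (-1.07 on the log2 scale, SE 0.85, adjusted p = 0.529).

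No other Rpsa pseudogene was called. Rpsa-ps10, Rpsa-ps7 and Rpsa-ps1, the 3 others that passed the filter, had log2 fold changes of 0.41, 0.43 and 0.37 and were not called (adjusted p = 0.881, 0.844 and 0.911). Whether their change differed from that of Rpsa-ps4 was not tested. Over the whole family of 9 pseudogenes, the parent and 8 other annotated copies, counts summed to 245, 200 and 325 in cryopreservation-2 libraries, against 1399, 3646 and 2861 in fresh libraries, and 60.6% to 95.6% of the fresh counts lay on pseudogenes. The 8 other annotated copies had 71, 13 and 29 counts in cryopreservation-2 libraries and 120, 35 and 79 in fresh libraries.

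**Figure D2:**
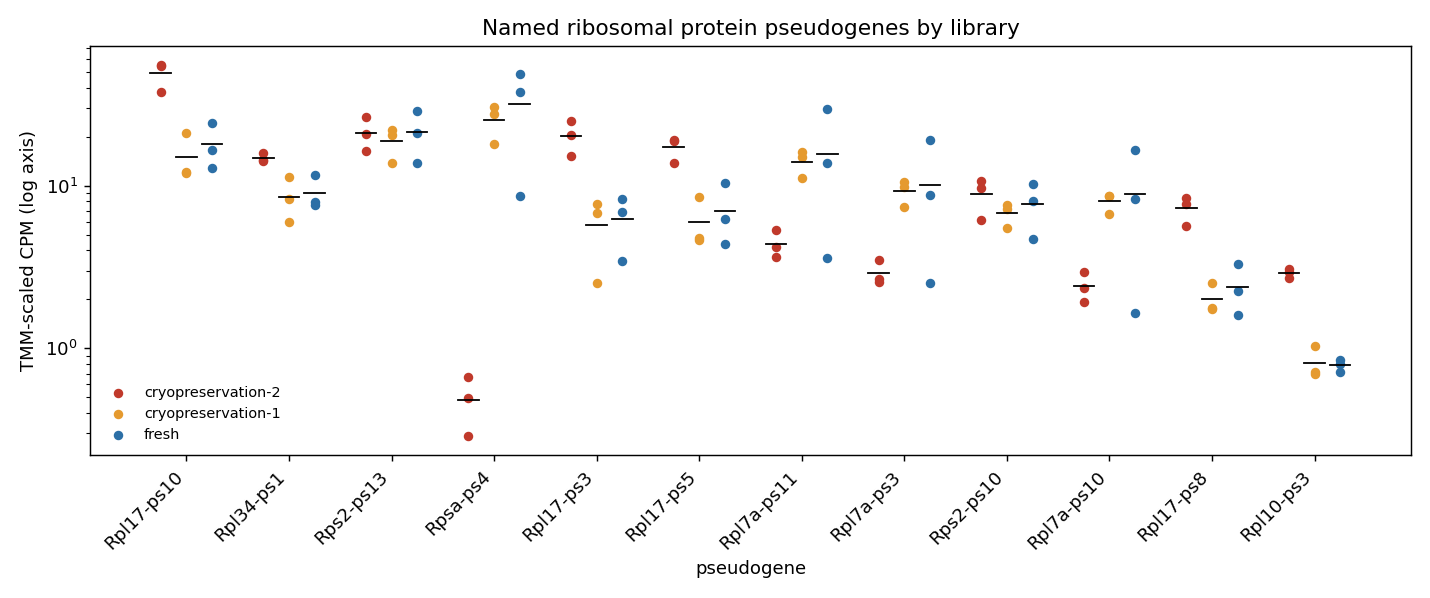
TMM-scaled CPM (log axis) of the named pseudogenes in the 9 libraries, cryopreservation-2 left, cryopreservation-1 middle and fresh right; each point is a library and each bar a group mean. Rpsa-ps4 lies near 0.482 CPM in cryopreservation-2 and near 25.3 and 31.5 CPM in the other groups.

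The Rpl17 pseudogenes, of a large-subunit gene, had higher counts together. Rpl17-ps10 had 1958, 2981 and 3322 counts in cryopreservation-2 libraries and 1336, 1689 and 905 in fresh libraries, at 49.1 ± 10.03 and 17.9 ± 5.87 CPM (SD, n = 3 each). It was called higher by 1.46 on the log2 scale (SE 0.33, adjusted p = 0.0341). Rpl17-ps8 had 295, 422 and 502 counts in cryopreservation-2 libraries and 182, 229 and 113 in fresh libraries, and was called higher by 1.60 (SE 0.39, adjusted p = 0.0419). In both, all cryopreservation-2 libraries were above all fresh libraries once scaled to library size. Rpl17-ps3, Rpl17-ps5, Rpl17-ps9 and Rpl17-ps4 had log2 fold changes of 1.70, 1.298, 1.46 and 2.75 with adjusted p of 0.0603, 0.0786, 0.0806 and 0.283. Rpl17 itself, with 3546, 5154 and 5586 counts in cryopreservation-2 and 3541, 5069 and 2021 in fresh libraries, stood at 0.81 (SE 0.35) and was not called (adjusted p = 0.206).

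The calls of both Rpl17 copies were lost after a correction for gene length (adjusted p = 0.0730 for Rpl17-ps10 and 0.0795 for Rpl17-ps8) and in fits that left out 1 library. Over the 19 alternatives the log2 fold change stayed between 1.06 and 1.74 for Rpl17-ps10 and between 1.22 and 1.91 for Rpl17-ps8. Rpl17-ps10 reached an adjusted p of 0.0999 when fresh replicate 1 was left out, 0.109 for fresh replicate 3, 0.0545 for cryopreservation-1 replicate 2, and 0.0865 and 0.0965 for cryopreservation-2 replicates 2 and 3. Rpl17-ps8 lost its call without any 1 library except fresh replicate 2 and cryopreservation-2 replicate 1, at adjusted p of 0.0601 to 0.126. Their 50-base windows were found in no other gene for 14.2% of Rpl17-ps10 and 1.92% of Rpl17-ps8. The pseudogenes took 50.8%, 51.6% and 53.2% of the counts of the Rpl17 family in cryopreservation-2 libraries, against 39.4%, 36.4% and 40.1% in fresh libraries. The 27 other annotated copies together went the other way, with 309, 351 and 375 counts in cryopreservation-2 libraries and 606, 857 and 455 in fresh libraries. Of the 6 of these that were tested, 5 had a positive log2 fold change and 1 was called lower.

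Rpl10-ps3 had 161, 162 and 162 counts in cryopreservation-2 libraries and 68, 56 and 51 in fresh libraries, at 2.91 ± 0.196 and 0.790 ± 0.0637 CPM (SD, n = 3 each), with no overlap. It was called higher by 1.88 (SE 0.47, adjusted p = 0.0471), a call lost after the length correction (adjusted p = 0.0888) and without any 1 of the 9 libraries (highest adjusted p = 0.125), while its log2 fold change stayed between 1.27 and 2.10 over the 19 alternatives. Its parent Rpl10 moved with it, at 1756, 2403 and 2519 counts in cryopreservation-2 libraries and 1266, 1222 and 702 in fresh libraries, and was called higher by 1.47 (SE 0.36, adjusted p = 0.0443), a call lost in 8 of 19 alternatives. With an identical coding sequence, reads of the copy and the parent cannot be told apart within it.

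The Rpl7a copies had lower counts together, and none was called. Rpl7a-ps11 had 191, 293 and 251 counts in cryopreservation-2 libraries and 290, 2043 and 969 in fresh libraries, which is -1.82 on the log2 scale (SE 0.59, adjusted p = 0.101). Fresh replicate 1 stood apart from the other fresh libraries, and after scaling it lay below all 3 cryopreservation-2 libraries, so the groups overlapped. Rpl7a-ps3, Rpl7a-ps10 and Rpl7a-ps5 had log2 fold changes of -1.80, -1.88 and -1.94, with adjusted p of 0.0998, 0.117 and 0.106. Without fresh replicate 1 all 4 were called lower. Rpl7a itself had 18, 13 and 14 counts in cryopreservation-2 libraries and 3, 75 and 120 in fresh libraries. It stood at -1.78 and was not called (edgeR adjusted p = 0.426). The 56 other annotated Rpl7a copies had 882, 1520 and 1325 counts in cryopreservation-2 libraries and 1436, 10066 and 4704 in fresh libraries, so that the pseudogenes took 32.1% to 36.0% of the family in cryopreservation-2 libraries and 33.3% to 34.5% in fresh ones.

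**Figure D3:**
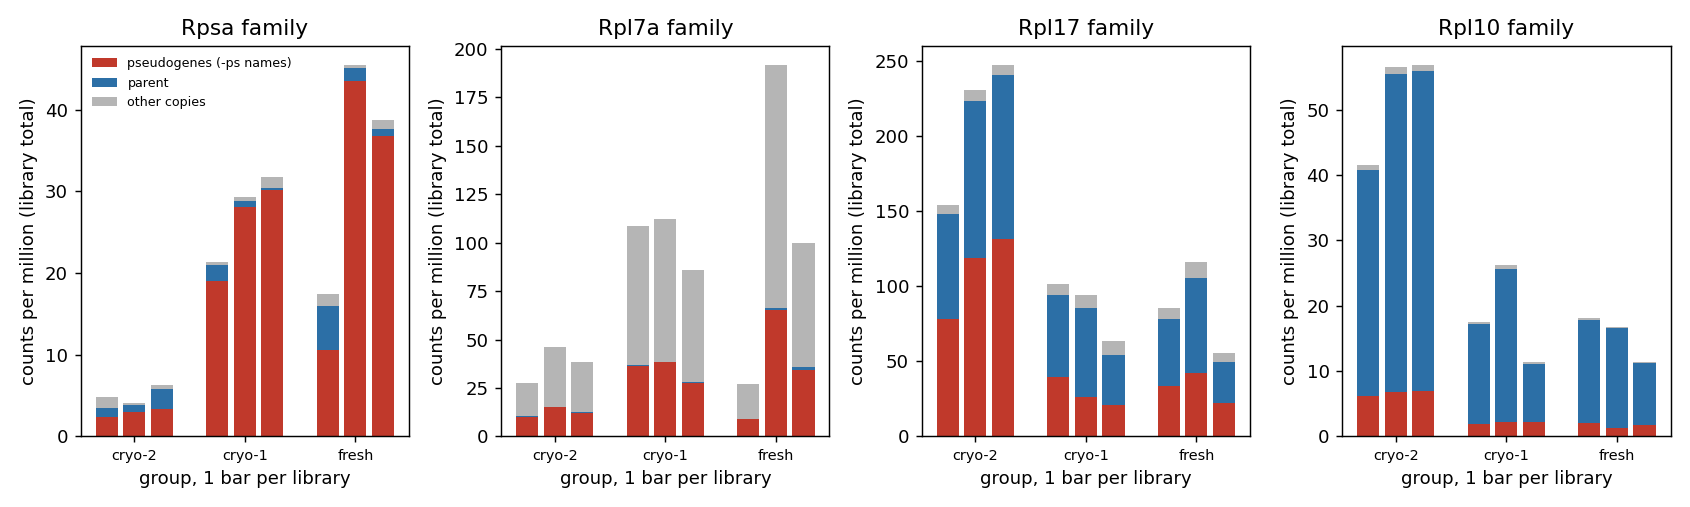
CPM, as a share of the library total, on the pseudogenes, the parent and other annotated copies of 4 families, 1 bar per library, with cryopreservation-2 (cryo-2) left, cryopreservation-1 (cryo-1) in the middle and fresh right. The Rpsa bars are carried by pseudogenes in fresh libraries and are low in cryopreservation-2, while the Rpl17 and Rpl10 bars are taller there than in fresh libraries.

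Rps2-ps13, Rps2-ps10 and Rpl34-ps1, also abundant, were not called. Rps2-ps13 had 848, 1142 and 1574 counts in cryopreservation-2 libraries and 1687, 2008 and 975 in fresh libraries, at -0.01 on the log2 scale (SE 0.32, adjusted p = 0.997), a sign that turned under both other scalings. Rps2-ps10 stood at 0.21 (SE 0.35) and Rpl34-ps1 at 0.72 (SE 0.30), with adjusted p of 0.806 and 0.197. The parents Rps2 and Rpl34 stood at 2.42 and 1.40 and were not called (edgeR adjusted p = 0.204 and 0.0891).

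Copies of Rpl35a and Rpl15, both large-subunit genes, had higher counts in cryopreservation-2 without a call. Rpl35a-ps4 had 89, 87 and 72 counts in cryopreservation-2 libraries, 22, 29 and 14 in cryopreservation-1 libraries and 25, 19 and 28 in fresh libraries, at 2.19 on the log2 scale against fresh (adjusted p = 0.0951). The 4 Rpl35a copies tested lay between 1.82 and 2.20, and Rpl35a itself at 2.10 (adjusted p = 0.171). Rpl15-ps3 had 390, 204 and 198 counts in cryopreservation-2 libraries and 128, 140 and 72 in fresh libraries, at 1.65 (adjusted p = 0.113). The 3 Rpl15 copies tested lay between 1.65 and 2.39, beside 0.38 for Rpl15 (adjusted p = 0.471). Of their 50-base windows, 0% of Rpl15-ps3, 8.88% of Rpl15-ps6 and 0% of Rpl35a-ps3 were found in no other annotated gene. Reads of such copies can be told apart from those of the parent or other copies little or not at all. Rps16-ps3, of a small-subunit gene, had 0 counts in all 3 cryopreservation-2 libraries and 15, 12 and 6 in fresh libraries, and was not called. These members were chosen after their values were seen.

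Over all 210 members, whether or not they passed the filter, every cryopreservation-2 library was above every fresh library in CPM for 73 and below for 4. Over all 26358 genes this held for 12.2% and 8.49%. Of the 73, 44 passed the filter and 29 did not, and 14 of these 29 had under 10 counts over the 9 libraries. The cryopreservation-2 libraries were the shallowest, so an equal low count gives a higher CPM there. The part of depth in the 73 was not tested. The filter used all 9 libraries, so a member could pass through the group where it was high. With cryopreservation-1 and fresh libraries alone, 79 pseudogenes and 16177 genes passed, beside 93 and 17545 with all 9. The median log2 fold change of the members that passed was 0.83, beside -0.06 for all genes tested, and 72 of 93 were positive. It was 0.38 after the length correction, with 60 positive, and the members have a median length of 476.5 bases. Length moved with these changes and its part in them was not tested. Of the 50 parents tested, 12 were called higher and 0 lower, beside 3.18% and 2.20% of all genes tested. Their median log2 fold change was 1.62, without the length correction.

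Pseudogenes took 0.0208%, 0.0282% and 0.0303% of all counts in cryopreservation-2 libraries, 0.0169%, 0.0187% and 0.0137% in cryopreservation-1 libraries and 0.0131%, 0.0238% and 0.0152% in fresh libraries. Cryopreservation-2 and fresh overlapped, since fresh replicate 2 lay above cryopreservation-2 replicate 1, and without either of these libraries they did not. Without Rpsa-ps4, a choice made after its values were seen, the groups did not overlap. Cryopreservation-2 then lay at 0.0208% to 0.0302% and fresh at 0.0115% to 0.0197%. The 8 Rpl17 pseudogenes held 3981, 5876 and 6772 of the 10555, 13903 and 15557 pseudogene counts in cryopreservation-2 libraries. In fresh libraries they held 2700, 3394 and 1658 of 10465, 19097 and 11197. The shares without the Rpl17 pseudogenes were not compared. Parents took 0.0896 ± 0.0161% (SD, n = 3) in cryopreservation-2, 0.0498 ± 0.0147% in cryopreservation-1 and 0.0495 ± 0.0112% in unfrozen oocytes. These are shares of each library, so they move with all other transcripts.

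**Figure D4:**
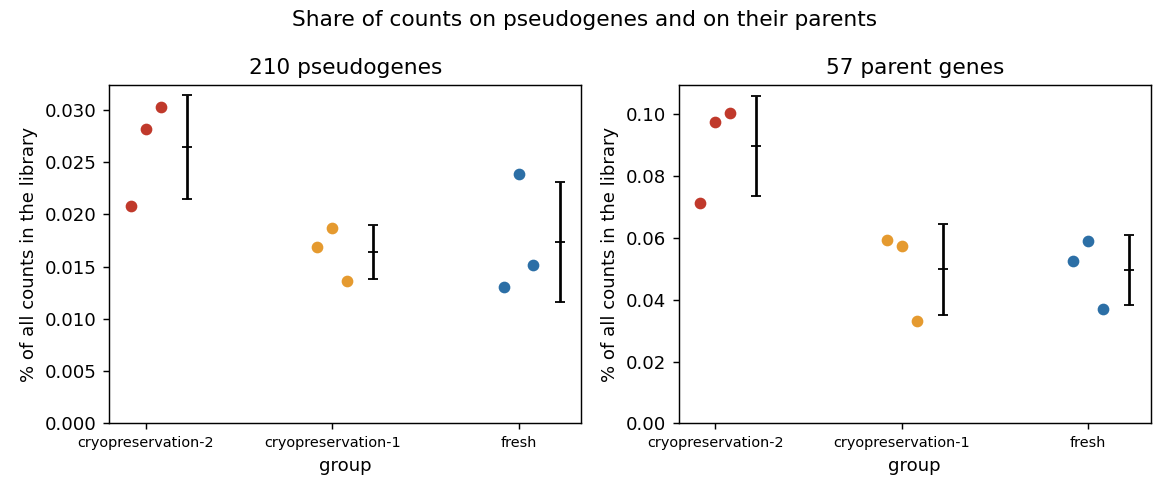
Percentage of all counts of a library on the 210 pseudogenes and on their 57 parents, with 1 point per library and the group mean ± SD beside it. Cryopreservation-2 libraries lie between 0.0208% and 0.0303% for pseudogenes, and the parents average 0.0896% there.

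Set against its parent within each library, the log2 ratio of pseudogene to parent lay higher in every cryopreservation-2 than in every fresh library for 19 of 92 pairs and lower for 20. Pairs of a family share their parent and are not independent. All 6 tested Rpl17 pseudogenes were among the 19, and all 4 tested Rps2 pseudogenes among the 20. Other genes have no such ratio, so no share over all genes stands beside these counts. The smallest exact permutation p this design allows is 0.1, and the smallest adjusted p over the 92 pairs was 0.236, so no pair passed. For Rpsa-ps4 the mean log2 ratio was -1.32 in cryopreservation-2 and 3.60 in fresh, a difference of -4.92 (exact permutation p = 0.1). For Rpl17-ps10 it was -0.80 and -1.38, and for Rps2-ps13 4.75 and 6.93. The parent Rps2 had few counts, at 16, 91 and 51 in cryopreservation-2 libraries and 19, 14 and 6 in fresh libraries.

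**Figure D5:**
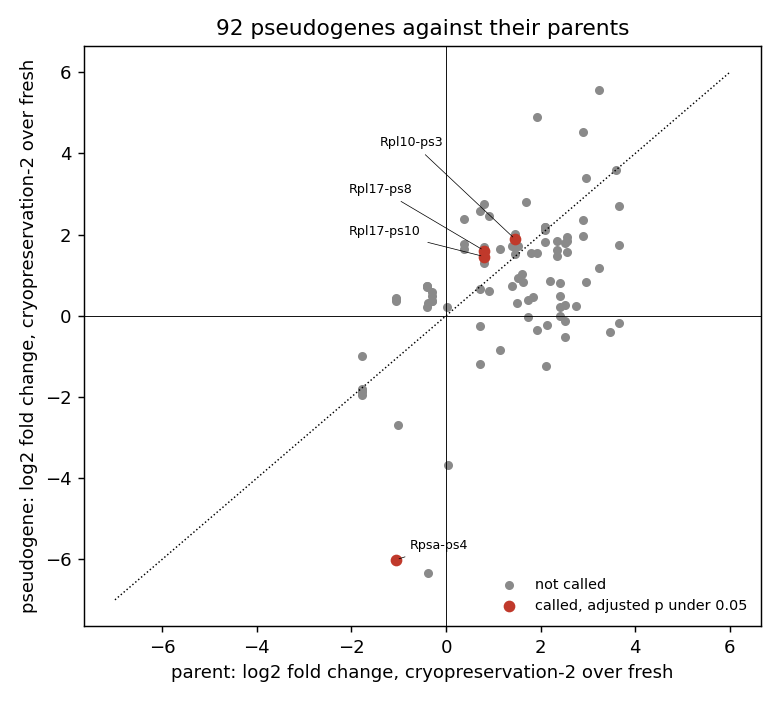
Log2 fold change of 92 pseudogenes, cryopreservation-2 over fresh, against that of their parents; red points were called and the dotted line marks equal change. Rpsa-ps4 lies far below the line, at -6.02 against -1.07 for Rpsa; the grey point near it is Rps16-ps3, which had 0 counts in cryopreservation-2.

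The comparison of cryopreservation-2 with cryopreservation-1 sets the straw protocol with nanoparticles beside the cryotop protocol. It shares the cryopreservation-2 libraries with the comparison against fresh. Rpsa-ps4 was called lower (-5.70 on the log2 scale, SE 0.66, edgeR adjusted p = 0.00783), and Rpl17-ps10 and Rpl17-ps8 were called higher (1.71 and 1.85, adjusted p = 0.0292 and 0.0369). These were 3 of 93 members, 2 higher and 1 lower, beside 483 of 17545 genes, which is 2.75%, with 263 higher (1.50%) and 220 lower (1.25%). Scaled by library totals alone, 492 genes were higher and 127 lower. Over 19 alternatives Rpl17-ps10 lost its call in 8, Rpl17-ps8 in 10 and Rpsa-ps4 in 1. Rpl10-ps3 did not pass, with 161, 162 and 162 counts in cryopreservation-2 libraries and 55, 80 and 43 in cryopreservation-1 libraries (1.84, SE 0.47, adjusted p = 0.0659). Without cryopreservation-2 replicate 1, cryopreservation-1 replicate 3 and fresh replicate 3 together, a choice made after seeing the data, edgeR called 0 genes, and Rpsa-ps4 had -5.17 at an adjusted p of 0.0706. Every cryopreservation-2 library was above every cryopreservation-1 library for 76 of the 210 members and below for 9, beside 11.3% and 10.4% of all genes. Of the 76, 42 passed the filter, and equal low counts again give a higher CPM in the shallower cryopreservation-2 libraries.

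For the cryotop protocol set against no freezing, no pseudogene was called. EdgeR called 0 of 93 pseudogenes and 0 of 17545 genes (0%), with 2 pseudogenes and 828 genes (4.72%) at an unadjusted p under 0.05. DESeq2 called 0 pseudogenes and 43 genes (0.247%), and limma on FPKM 0 of either. On the log2 scale Rpsa-ps4 stood at -0.32 (SE 0.53) and Rpl17-ps10 at -0.25 (SE 0.32), both with an adjusted p of 1. Every cryopreservation-1 library was above every fresh library for 8 of the 210 members and below for 10, beside 4.67% and 2.84% of all genes. The median over the 93 members was -0.08, beside 0.02 for all genes tested.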

How the data were processed

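Poly(A) RNA sequencing of mouse oocytes gave 9 libraries in 3 groups, assigned by the treatment labels. Per the submitters' processing notes, cutadapt 1.9, HISAT2 2.0.4, StringTie 1.3.4d and build GRCm38 were used. How reads with several matches were handled, and whether counting used strand, is not given in the sources at hand, so reads of overlapping or antisense genes cannot be told apart. The authors deposited 1 table of raw counts per gene and FPKM values, with a column of each for every library. The deposited counts match a rounding up of fractional reads. All gene identifiers of the members matched the reference gene table.

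The counts were tested with edgeR 4.0.16 (R 4.3.3), using its quasi-likelihood test after filterByExpr (minimum count 10, minimum total 15, 17545 genes left), TMM scaling and Benjamini-Hochberg adjustment over all genes. All 9 libraries entered 1 fit, with a threshold of 0.05 on the adjusted p. CPM are TMM-scaled, with the SD over 3 libraries. DESeq2 1.42.0, limma 3.58.1 on log2(FPKM + 1) and log2(FPKM + 0.1), other scalings, no filter, a length correction and leaving out libraries were alternatives. Ratios to the parent used a pseudocount of 0.5 and an exact two-sided permutation test over libraries. A count of 0 allows up to 3 counts, which covers counting error only.

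Pseudogene transcripts from GENCODE M21 were aligned with the longest coding sequence of the parent, and windows of 50 bases were searched in all its transcripts. Named pseudogenes were the 12 with the highest mean FPKM among those that passed the filter, every called member and their parents, and 1 of them is not reported here. Other members of their families and members outside this rule, and the division by own windows, were chosen after their values were seen. Libraries of a group differed by more than sampling noise, with a chi-square per degree of freedom of 85.8 to 326. The members and lists were chosen with earlier results of these data known.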

Additional observations from a re-analysis of the deposited data

How the results depend on the processing

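The calls depended on the tool and on single libraries. For cryopreservation-2 against fresh, 4 pseudogenes and 944 genes became 24 and 2471 with DESeq2, 35 and 1792 with limma on log2(FPKM + 1), and 34 and 1654 with limma on log2(FPKM + 0.1). They became 2 and 429 with the 2 groups alone, 8 pseudogenes with library totals, 2 with no filter and 1 with the length correction. For cryopreservation-2 against cryopreservation-1, 3 pseudogenes and 483 genes became 18 and 1892 with DESeq2, 29 and 1175, then 26 and 1010, with limma at the larger and the smaller pseudocount. Pseudogenes became 8 with the 2 groups alone, 7 with library totals and 1 with the length correction. The 2 groups alone tested 82 pseudogenes of 16013 genes against fresh and 81 of 16096 against cryopreservation-1, and no filter left 210 of 26358. A pseudogene count given without a count of all genes is not set against the background here. For cryopreservation-1 against fresh, 0 genes became 43 with DESeq2 and 1 with the 2 groups alone, and no alternative called a pseudogene. Library totals moved the median of all genes by over 0.1, to 0.17 against fresh and 0.13 against cryopreservation-1, and all changes under it are relative to that. As shares of the pseudogenes and of all genes with an adjusted p, these are 30% and 15.0% with DESeq2 and 37.6% and 10.2%, then 36.6% and 9.43%, with limma against fresh, beside 4.30% and 5.38% with edgeR. Against cryopreservation-1 they are 26.5% and 12.3%, 31.2% and 6.70%, and 28.0% and 5.76%, beside 3.23% and 2.75%. The causes were not tested.

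Leaving out each library in turn gave 1 to 5 pseudogenes and 231 to 786 genes for cryopreservation-2 against fresh, 1 to 5 and 15 to 480 against cryopreservation-1, and 0 to 1 genes for cryopreservation-1 against fresh. Without fresh replicate 1, the 5 pseudogenes against fresh were Rpsa-ps4 and Rpl7a-ps3, Rpl7a-ps5, Rpl7a-ps10 and Rpl7a-ps11, all lower. Without the library with the most genes at 0 in each group, chosen after seeing the data, 2 pseudogenes (Rpl17-ps3 and Rpsa-ps4) and 194 genes were called against fresh, and 0 and 0 against cryopreservation-1.

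The deviations of same-numbered replicates from their group means had correlations of -0.125 to 0.122. With 3 libraries per group, these values cannot show whether the numbers pair the libraries. With a replicate block, 1 pseudogene and 500 genes were called for cryopreservation-2 against fresh, and 1 and 230 against cryopreservation-1.

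Signs turned for small changes. For cryopreservation-2 against fresh, Rps2-ps13 became 0.0181 with RLE scaling and with DESeq2, 0.0152 with no filter, 0.0154 without the 3 libraries with most genes at 0, 0.25 with library totals, 0.16 and 0.17 with limma, 0.0707 with the 2 groups alone and 0.0585 with the replicate block, and lay between -0.24 and 0.28 without 1 library. Rps2-ps10 became -0.11 with the length correction and lay between -0.0506 and 0.47 without 1 library. For cryopreservation-1 against fresh, Rpsa-ps4 became 0.0316 and 0.0474 with limma and Rpl10-ps3 -0.0318 with the length correction. Without 1 library, Rpsa-ps4 lay between -0.76 and 0.13, Rpl17-ps10 between -0.57 and 0.0358, Rpl17-ps8 between -0.46 and 0.0612, Rpl10-ps3 between -0.17 and 0.15 and Rpl10 between -0.19 and 0.49. The overlap of pseudogene shares ended without fresh replicate 2, where cryopreservation-2 lay at 0.0208% to 0.0303% and fresh at 0.0131% and 0.0152%, and without cryopreservation-2 replicate 1. The ratios to the parent could not pass the threshold under any alternative. Depth limits the 66 members with under 10 counts in all.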
